A study of Mus musculus with 40 samples.

Results

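The genes described here encode proteins that write, remove or read marks on histones and DNA, or that move nucleosomes. They were taken by name from a transcript table of mouse cortex. Every transcript whose RefSeq symbol starts with Kmt, Kdm, Hdac, Kat (Katn left out), Smarc, Setd or Arid, or belongs to the Chd1 to Chd9, Brd1 to Brd9, Baz1, Baz2 or Tet1 to Tet3 names, was kept, and 1 Y-linked transcript was left out. This gave 87 transcripts of 74 genes among 6831 transcripts of 5867 genes. The annotation holds 103 genes that match, and the other 29, Hdac1, Kat5 and Smarcb1 among them, were not analysed here. By class there were 13 transcripts of 12 lysine methyltransferase and SET domain genes (Kmt, Setd), 13 of 12 demethylase genes (Kdm), 7 of 6 acetyltransferase genes (Kat), 6 of 6 deacetylase genes (Hdac), 8 of 6 bromodomain genes (Brd), 23 of 17 Smarc and Arid genes, 11 of 9 CHD remodellers, 3 of 3 BAZ genes and 3 of 3 TET genes.

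All mice were male C57BL/6 of 12 weeks, and whole cortical tissue was taken 24 h after the last session. They received saline or the NMDA receptor blocker memantine 1 h before each session, and then either high-frequency head impact (HF-HI) or a sham procedure of handling and anaesthesia without impact. With 10 libraries each, this made 4 groups, named by drug and procedure, and the sham mice received the same injections as the impacted ones. The question was whether the transcripts of the chromatin machinery changed with impact, with the drug, or with impact in a way that depended on the drug.

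Histone acetyltransferases add acetyl groups to histone tails, deacetylases take them off, and bromodomains bind acetylated lysines. Methyltransferases and demethylases do the same for methyl groups on lysines, with different outcomes at different residues, while TET enzymes oxidise methylated cytosine in DNA, a reaction that is prominent in neurons. Remodellers of the SWI/SNF, ISWI and CHD families use ATP to slide or evict nucleosomes, and several of them, as well as many of the lysine enzymes, carry mutations in human neurodevelopmental disorders.

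Levels are given as normalised read counts (counts divided by a size factor for the depth of the library) and changes as the log2 difference of the count plus 1, with its standard error (SE) or 95% interval. The p-values come from limma, fitted to the deposited scale with 1 term per group. A transcript was called at an unadjusted p under 0.05, and a Benjamini-Hochberg adjusted p under 0.1 is given beside it. The recovered counts summed to between 1.33e+07 and 1.75e+07 reads per library, over the transcripts of the table. The transcripts described here had mean counts of 558 to 10454, with a median of 1435, and took between 1.08% and 1.18% of the counts of each library. Markers of neurons (7 of 7 genes in the table), cortical excitatory neurons (10 of 12), astrocytes (9 of 9) and oligodendrocytes (7 of 8) were present, and 0 of 5 blood genes were in the table. Markers of striatum were present as well (15 of 20 genes, with Drd2 and Adora2a not among them). Over the 40 libraries their summed count lay between 53012 and 84196. Markers of other regions varied as well. Those of thalamus (3 of 5 genes) summed to between 3837 and 11317. The choroid plexus marker (1 of 3 genes) ran from 74.5 to 22031, and that of hippocampus (1 of 4) from 714 to 1527.

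Per kilobase, levels of transcripts of different length can be compared. The level in saline sham ran from 47.9 normalised counts for Tet1 to 1459 for Chd3, a subunit of the NuRD deacetylase complex. The median was 230 against 344 for all transcripts with a known length, and 24 of the 87 transcripts, or 27.6%, were above that of all transcripts. The median chromatin transcript was 5927 bases long against 4008 for the table, and before division by length the medians were 1332 and 1238 counts. The lowest mean count of any transcript in the table was 549. A long transcript could thus enter it at a lower level per kilobase than a short one. The transcripts near the top were Chd3, the methyltransferase Setd3 (1238 per kilobase), which modifies actin, the SWI/SNF ATPase Smarca2 (1098), the deacetylase Hdac11 (1046) and Chd4 (861), the ATPase paralogue of Chd3. At the low end stood Tet1, Chd7 (63.2), the Chd5 transcript NM_029216 (101), Kdm3a NM_001038695 (104) and Arid5b (108). The other transcripts of Chd5 and Kdm3a stood at 582 and 214. The class ranges that follow are of single transcripts, not of gene sums. Every class spanned a range: 111 to 1238 for methyltransferases, 104 to 402 for demethylases, 142 to 316 for acetyltransferases, 150 to 1046 for deacetylases, 136 to 365 for bromodomain genes, 108 to 1098 for Smarc and Arid genes, 63.2 to 1459 for CHD genes, 202 to 593 for BAZ genes and 47.9 to 164 for TET genes. Of the 74 genes, 58 were matched to a RefSeq promoter (GRCm38.p6, 300 bases around the start), and all 58 held the letters CG, as did 99.7% of the promoters of genes in the table and 94.6% of those of all genes. Where a gene had several promoters, the promoter with the most CG pairs was taken. The median number of pairs was 29, against 25 for the genes of the table and 8 for all genes.

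**Figure D1:**
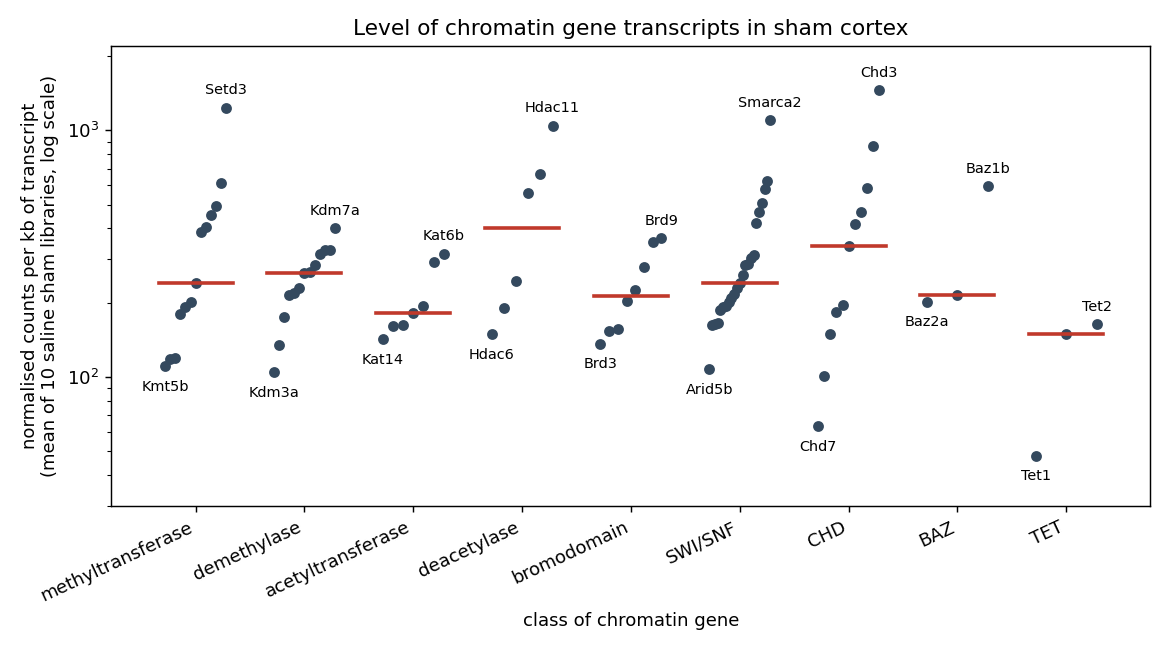
Normalised counts per kilobase of transcript (log scale) for each of 87 chromatin gene transcripts, by class, as the mean of 10 saline sham libraries. Points are transcripts and red lines are class medians. The lowest and highest transcript of each class carries its gene name, from Tet1 at 47.9 to Chd3 at 1459.

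Head impact under saline was the first comparison. Of the 87 transcripts, 5 passed an unadjusted p under 0.05 (5.75%), against 9.53% of all 6831 transcripts, so the share was below that of the table. The remodeller Chd1, the bromodomain gene Brd9 and the deacetylase Hdac3 rose, and the SWI/SNF-related gene Smarcal1 and the SWI/SNF subunit Smarcd3 fell. None of the 87 passed an adjusted p under 0.1 by limma, nor by voom on the recovered reads, and the smallest adjusted p was 0.237, while 14 transcripts of the table passed. The median change of the 87 was 0.00058 on the log2 scale against 0.00021 for all transcripts, and 43 of 87 were higher after impact.

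Chd1 (NM_007690, gene at chr17:15704967-15772612, build GRCm38) encodes a remodeller that binds methylated histone H3 lysine 4 and spaces nucleosomes along transcribed genes. Its count ran from 1012 to 1253 (median 1197) in saline sham and from 1172 to 1440 (median 1284) in saline HF-HI. With memantine it ran from 1079 to 1333 (median 1181) in sham and from 1116 to 1317 (median 1219) after impact. The saline groups overlapped, but 6 of 10 impacted libraries were above every sham library. The mean went from 1179 ± 73.8 to 1297 ± 84.8 (SD, n = 10 each), a log2 change of 0.14 (95% interval 0.054 to 0.22, limma p = 0.00174, adjusted p = 0.237, permutation test p = 0.00314), and 9 of 10 impacted libraries were above the sham mean. In memantine HF-HI the Chd1 count was 0.084 lower on the log2 scale than in saline HF-HI (limma p = 0.0443, adjusted p = 1, permutation p = 0.0548), with 8 of 10 libraries on that side. Leaving out any of 11 libraries ended that last call, with p = 0.106 without replicate 7 of saline HF-HI. The interaction of impact and drug had p = 0.118 for Chd1.

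Smarcal1 (NM_018817, chr1:72536695-72636790), an annealing helicase that acts at stalled replication forks and belongs to the SWI/SNF-related family by sequence, had counts of 1685 to 1862 (median 1741) in saline sham and 1594 to 1779 (median 1650) in saline HF-HI. Of the 10 impacted libraries, 6 were below the lowest sham library. The mean was 1763 ± 58.9 in sham and 1674 ± 72.0 after impact (SD, n = 10), and the change was -0.075 (95% interval -0.12 to -0.027, limma p = 0.00295, adjusted p = 0.258, permutation p = 0.00826). Memantine sham, at 1699 ± 46.3, was also lower than saline sham, by -0.053 (limma p = 0.0297, adjusted p = 0.634, permutation p = 0.0144), with 5 of 10 libraries below the lowest saline sham library. That second call was lost in 5 of the 40 fits that left out a library (p = 0.0700 without replicate 10 of saline sham). Saline sham was the highest of the 4 group means, since memantine HF-HI stood at 1687 ± 57.8.

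Smarcd3 (NM_025891, chr5:24592622-24624456), the BAF60c subunit of SWI/SNF, had counts of 655 to 926 (median 809) in saline sham and 645 to 832 (median 732) in saline HF-HI, so that the ranges overlapped and 1 impacted library was below every sham library. The mean went from 812 ± 76.0 to 738 ± 58.2 (SD, n = 10), a change of -0.14 (95% interval -0.24 to -0.032, limma p = 0.0109, adjusted p = 0.374, permutation p = 0.027). Under memantine the sham mean was 795 ± 58.1 and the HF-HI mean 754 ± 48.1.

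Brd9 (NM_001024508, chr13:73937801-73960895), a bromodomain subunit of the non-canonical SWI/SNF complex, varied more between libraries. It is represented by 1 of 4 curated transcripts. Its count ran from 553 to 1089.5 (median 899) in saline sham and from 713 to 1276 (median 1017) in saline HF-HI, with 4 impacted libraries above every sham library. The change was 0.24 (95% interval 0.020 to 0.47, limma p = 0.0336, adjusted p = 0.486), and the permutation test gave p = 0.0788, which missed the threshold. Without replicate 2 of saline sham the limma p was 0.0976.

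Hdac3 (NM_010411, chr18:37936971-37955015), the catalytic subunit of the NCoR and SMRT corepressor complexes, had counts of 1049.7 to 1201 (median 1144) in saline sham and 1118 to 1324 (median 1168) in saline HF-HI. The change of 0.058 (95% interval 0.0017 to 0.11, limma p = 0.0438, adjusted p = 0.508, permutation p = 0.0591) rested on few libraries, and without replicate 8 of saline HF-HI, the highest, the limma p was 0.135.

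**Figure D2:**
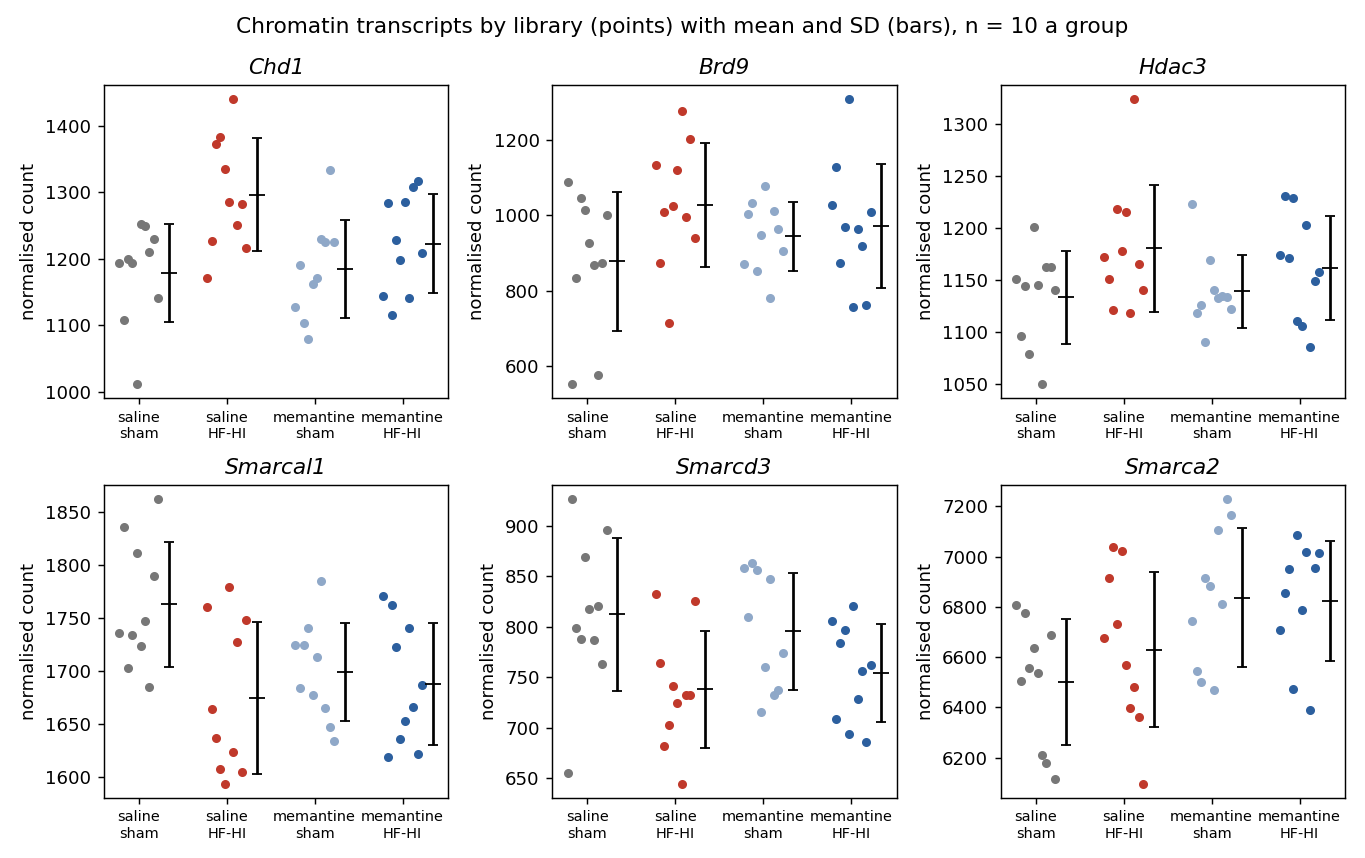
Normalised count of 6 chromatin gene transcripts in each of 40 libraries (points, 10 per group) with the mean and SD (bars); axes do not start at 0. The groups overlap in every panel, with 6 of 10 saline HF-HI libraries above all saline sham libraries for Chd1 and 6 of 10 below all of them for Smarcal1.

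Striatal markers moved in the same comparison. Of their 23 transcripts, 9 fell and 0 rose in saline HF-HI at an unadjusted p under 0.05 (against 9.53% of the table called), with a median change of -0.16. Of 5 transcripts of inhibitory neuron markers, 3 fell and 1 rose. Endothelial markers moved as well, with 2 of 3 transcripts called higher (3 of 7 genes in the table) and a median change of 0.0999. Markers of cortical excitatory neurons gave 1 call up and 1 down among 12 transcripts. Those of neurons (12 transcripts), astrocytes (13), oligodendrocytes (15) and microglia (5) gave 1 call up each. None of these marker transcripts passed an adjusted p under 0.1. The summed counts were 71411 ± 7661 in saline sham and 64054 ± 4071 in saline HF-HI for striatum, and 14750.5 ± 1252 and 13761 ± 933 for inhibitory neurons (SD, n = 10). With the mean of the striatal markers as a covariate, Chd1 kept a limma p of 0.0209, whereas Smarcal1 (0.0531), Smarcd3 (0.176), Brd9 (0.101) and Hdac3 (0.126) no longer passed and the count of called transcripts was 1 instead of 5. The share of all transcripts called with this covariate is not given. The striatal markers were themselves lower in saline HF-HI, so these p-values cannot tell a smaller change from a wider SE. In tissue of mixed cells, fewer cells of a type and less RNA per cell cannot be told apart, and the part of tissue composition in these changes was not tested beyond this covariate.

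By class, the impact of saline animals gave calls for 0 of 13 methyltransferase, 0 of 13 demethylase, 0 of 7 acetyltransferase, 1 of 6 deacetylase, 1 of 8 bromodomain, 2 of 23 Smarc and Arid, 1 of 11 CHD, 0 of 3 BAZ and 0 of 3 TET transcripts. The class medians lay between -0.026 for deacetylases and 0.082 for bromodomain transcripts on the log2 scale. In the classes without a call, the smallest p belonged to the H3 lysine 4 demethylase Kdm5b (NM_152895, change -0.045, limma p = 0.0514, permutation p = 0.0268, 4 of 10 impacted libraries below every sham library), the Trithorax-family gene Kmt2e (0.060, p = 0.133), the imitation-switch subunit Baz1b (0.022, p = 0.304), the acetyltransferase Kat2a (-0.14, p = 0.321) and Tet1 (-0.037, p = 0.442).

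For most genes the data set narrow bounds on the change of the transcripts in the table. Where a gene has other curated transcripts, as Brd7 does (1 of 9 in the table), its sum covers only a part. When the transcripts of a gene were summed, the 95% interval of the impact change under saline had a median width to either side of 0.083 on the log2 scale. For 28 of 74 genes it lay inside ±0.1 (a change of at most 7.18% up or 6.7% down), for 52 inside ±0.2 and for 70 inside ±0.5. The other 4 were Hdac5, Kdm6a, Kmt5b and Tet3. Chd8, a CHD remodeller often mutated in autism, was among the steadiest transcripts, with means of 3810 ± 118 in saline sham and 3805 ± 67.4 in saline HF-HI and a spread within groups (SD) of 0.0349 on the log2 scale. Of the sums, 6 passed p under 0.05, 3 up and 3 down, or the 5 genes above and Kdm5b, against 10.7% of all sums.

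**Figure D3:**
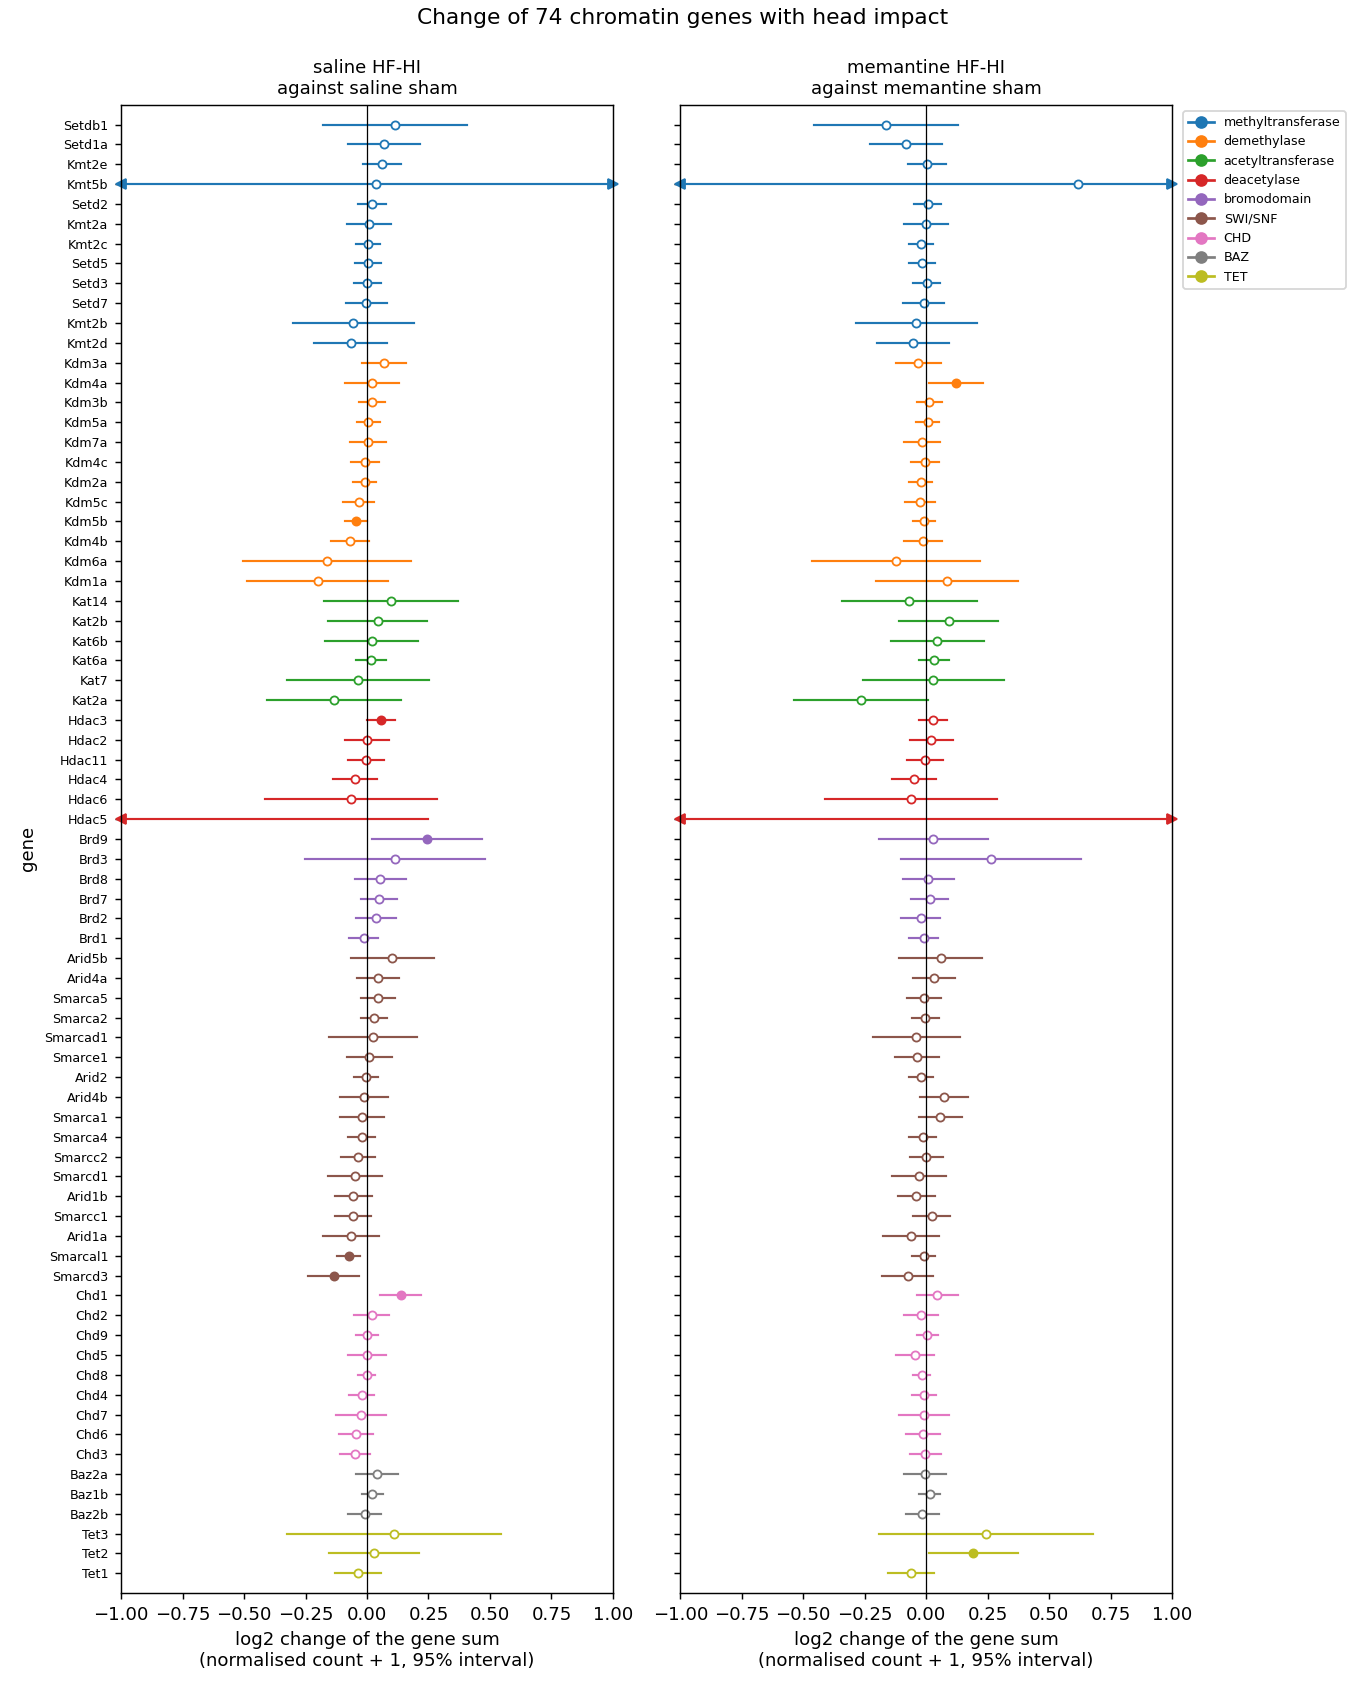
Log2 change with impact of the summed count of each of 74 chromatin genes under saline (left) and memantine (right), with 95% intervals; filled points have an unadjusted p under 0.05 and colours mark classes. Arrows mark intervals of Hdac5 and Kmt5b that run past the axis, and both points of Hdac5 lie beyond it. Among the other genes the saline changes run from -0.20 for Kdm1a to 0.24 for Brd9.

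Head impact under memantine gave 3 calls among the 87 transcripts (3.45%, against 4.61% of the table), and 0 at an adjusted p under 0.1 by limma or voom (smallest adjusted p = 0.967). The H3 lysine 9 and 36 demethylase Kdm4a and the DNA dioxygenase Tet2 rose, and Kat2a, the GCN5 acetyltransferase of the SAGA and ATAC complexes, fell. Kdm4a (NM_001161823, chr4:118136957-118180090) had counts of 746 to 912 (median 826) in memantine sham and 769 to 1027 (median 901) in memantine HF-HI, with 5 impacted libraries above every sham library. Its change was 0.12 (SE 0.055, limma p = 0.0303, permutation p = 0.0366), and the call was lost in 5 of 40 fits without a library (p = 0.0750 without replicate 7 of memantine HF-HI). Against saline HF-HI, at 824 ± 63.1, the memantine HF-HI mean of 895 ± 88.5 was higher by 0.12 (limma p = 0.0372, adjusted p = 1, permutation p = 0.0546). This call was lost in 11 of those fits (p = 0.0900 without the same library). Saline sham stood at 814 ± 79.7. Kdm4a is represented by 1 of 2 curated transcripts.

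Tet2 (NM_001040400, chr3:133463677-133545136) had counts of 1303 to 1996 (median 1393) in memantine sham and 1337 to 2037 (median 1550) in memantine HF-HI. The change was 0.19 (SE 0.091, limma p = 0.0407, permutation p = 0.0585), and 8 of 10 impacted libraries were above the sham median. Without replicate 7 of memantine HF-HI the limma p was 0.0919. Tet2 is represented by 1 of 2 curated transcripts. Kat2a (NM_001038010, chr11:100704746-100712485) had counts of 335 to 703 (median 657) in memantine sham and 442 to 654 (median 490) in memantine HF-HI, and 0 of 10 impacted libraries reached the sham median. Its limma p was 0.0396 on the deposited scale and 0.0572 on the log2 count scale, where the change was -0.27 (SE 0.14), and the permutation test gave p = 0.0186. Without replicate 8 of memantine sham the limma p was 0.0668. Kat2a is represented by 1 of 4 curated transcripts. Summed by gene, 2 passed, Kdm4a and Tet2, against 4.38% of all sums. The 95% interval lay inside ±0.2 for 54 of 74 genes.

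With both drug arms averaged, impact gave 6 calls (6.90%, against 9.66% of the table), with Chd1 and Hdac3 higher and Smarcd3, Smarcal1, Kat2a and Hdac5 lower. The averaged change was 0.091 for Chd1 (SE 0.029, limma p = 0.00303, adjusted p = 0.224) and -0.11 for Smarcd3 (SE 0.036, p = 0.00553, adjusted p = 0.266). The calls of Hdac3 (p = 0.0355) and Kat2a (p = 0.0326) were lost without replicate 8 of saline HF-HI (p = 0.0688) and without replicate 7 of it (p = 0.0605). With the striatal marker mean as a covariate, only Chd1 (p = 0.0271) of the 6 still passed, against 0.0865 for Smarcd3, 0.148 for Smarcal1, 0.0992 for Hdac3, 0.0513 for Kat2a and 0.0761 for Hdac5. Of the 23 striatal transcripts, 6 fell and 0 rose in this comparison, so a smaller change and a wider SE cannot be told apart here either. None of the 87 passed an adjusted p under 0.1 by limma or voom, where 29 transcripts of the table did. With libraries weighted by their quality 2 did, Chd1 and Smarcd3. The share of all transcripts called with these weights or with the covariate is not given. Summed by gene, 5 genes passed, 2 up and 3 down, against 10.9% of all sums. Hdac5 (NM_010412, chr11:102195747-102230172), a class IIa deacetylase that shuttles between nucleus and cytoplasm with neuronal activity, is represented by 1 of 6 curated transcripts. Its count was 304 to 1191 in saline sham and 0 to 975 after impact with saline, then 307 to 1009.8 in memantine sham and 0 to 1165 after impact with memantine, with 3 libraries listed at 0, 2 of saline HF-HI and 1 of memantine HF-HI. The limma p of 0.0463 (adjusted p = 0.507) was 0.0899 without replicate 5 of memantine HF-HI and 0.369 with voom, and no fold is given. The interaction term of impact and drug was called for 1 of 87 transcripts (1.15%, against 3.73% of the table), NM_029216 of Chd5, and for 0 of 74 gene sums (against 3.59% of all sums), and none passed an adjusted p under 0.1 by limma or voom (smallest adjusted p = 0.999).

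Memantine without impact gave 5 calls against saline sham (5.75%, against 7.51% of the table). Smarca2, Baz2a, Kmt2e and NM_029216 of Chd5 rose and Smarcal1 fell, and none passed an adjusted p under 0.1 by limma or voom (smallest adjusted p = 0.554). Smarca2 (NM_011416, chr19:26605073-26778321), or BRM, one of the alternative ATPases of SWI/SNF, had counts of 6114 to 6809 (median 6547) in saline sham and 6470 to 7230 (median 6849) in memantine sham, and 6 of 10 memantine sham libraries were above every saline sham library. The change was 0.073 (95% interval 0.019 to 0.13, limma p = 0.00898, permutation p = 0.0116), and 7 of 10 libraries were above the saline sham median. Under HF-HI the means were 6630 ± 308 with saline and 6824 ± 237 with memantine. Smarca2 is represented by 1 of 3 curated transcripts. Baz2a (NM_054078, chr10:128091370-128129303), a subunit of the NoRC complex that silences ribosomal genes, went from 1688 ± 125 to 1809 ± 133 (change 0.10, SE 0.043, limma p = 0.0249, permutation p = 0.0506), and Kmt2e (NM_026984, chr5:23433036-23504235) from 3575 ± 256 to 3801 ± 262 (change 0.088, SE 0.038, limma p = 0.0278, permutation p = 0.0662). Both pairs of groups overlapped, and the p-values were 0.0749 for Baz2a without replicate 4 of saline sham and 0.0747 for Kmt2e without replicate 2 of it. Summed by gene, 5 passed, 4 up and 1 down, against 7.92% of all sums. Brd2, whose product binds acetylated histones and was singled out after its values were seen, was among them, as its sum went from 2348 ± 160 in saline sham to 2509 ± 144 in memantine sham (change 0.096, SE 0.039, limma p = 0.0190).

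Between the HF-HI groups, 2 transcripts were called (2.30%, against 3.91% of the table), Kdm4a up and Chd1 down with memantine, as were their gene sums (2 of 74, against 3.66%). None passed an adjusted p under 0.1 by limma or voom. With sham and HF-HI averaged, memantine gave 6 calls (6.90%, against 8.11%). Smarca2 (change 0.057, SE 0.019, limma p = 0.00386, adjusted p = 0.474), Baz2a (0.076, p = 0.0156), the H3 lysine 36 demethylase Kdm2a (0.038, p = 0.0248), Baz1b (0.033, p = 0.0319, and 0.0594 without replicate 9 of memantine sham) and Kmt2e rose, and the Brd8 transcript NM_001289606 fell (-0.29, p = 0.0183), with a Brd8 sum that did not pass (p = 0.185). Of the sums, 7 rose and 0 fell at p under 0.05, against 8.85% of all sums in both directions, the remaining ones being Brd2 and the acetyltransferase Kat7. None passed an adjusted p under 0.1 by limma or voom. In this comparison 62 of 87 transcripts (71.3%) were higher with memantine on the deposited scale, against 49.6% of all transcripts, and the median difference of the 87 was 0.012. The count was 58 of 87 with libraries centred on their medians, 57 with quantile normalisation, 54 with voom and 53 with the striatal covariate. It was 62 of 87 with the replicate number as a block. Among transcripts with a mean of at least 1000 counts it was 42 of 56, and by gene sum 53 of 74. The share of all transcripts is not given for these alternatives. The transcripts share libraries and depth, and no test is given for the share that was higher. The summed count of the 87 transcripts was 172478 ± 4442 in saline sham and 171661 ± 2708 after impact with saline (SD, n = 10). With memantine it was 174912 ± 4634 in sham and 174227 ± 3109 after impact, and the ranges overlapped.

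**Figure D4:**
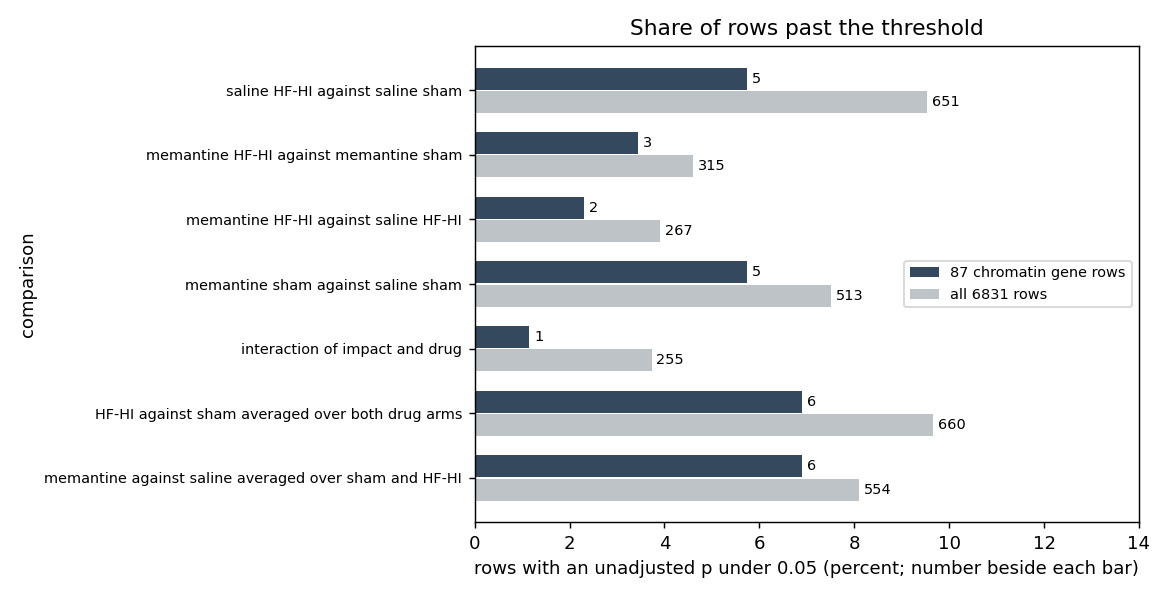
Percentage of the 87 chromatin gene transcripts (dark bars) and of all 6831 transcripts (light bars) with an unadjusted p under 0.05 in each of 7 comparisons, with the number beside each bar. The comparisons share groups and the differences between the bars were not tested. For impact under saline the shares are 5.75% and 9.53%.

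Of the 74 genes, 63 were represented by 1 transcript and 11 by several (24 transcripts in all), and these behaved differently. The median spread within groups was 0.094 on the log2 scale for the chromatin genes with 1 transcript, as for all such genes of the table (0.096), but 0.42 for the transcripts of chromatin genes with several (0.35 in the table). The sums varied less than the transcripts for the genes that follow. For Kat7, in contrast, the sum had a spread of 0.33, against 0.29 and 0.57 for its transcripts. The transcripts of Chd9, a remodeller of the Chd7 and Chd8 subfamily, had spreads of 1.00 and 0.72, and their sum had 0.048. The corresponding values were 2.26 and 1.93 against 0.099 for Smarca1, the SNF2L ATPase, 0.44 and 0.57 against 0.056 for Setd5, and 4.10 and 0.54 against 0.10 for Kdm3a, an H3 lysine 9 demethylase. The share of NM_001310530 in the Chd9 sum ran from 6.23% to 85.6% over the 40 libraries, while the sum itself ran from 3807 to 4359. For Smarca1 the share of NM_001290708 ran from 0% to 99.2%, and the sum from 1706 to 2281. The 3 transcripts each of the SWI/SNF core genes Smarca4 and Smarcc2 had spreads of 0.14 to 0.36. Within groups the SD of the Chd9 share was between 13.8 and 26.0 percentage points, and how the counting divided reads between overlapping transcripts was not tested.

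**Figure D5:**
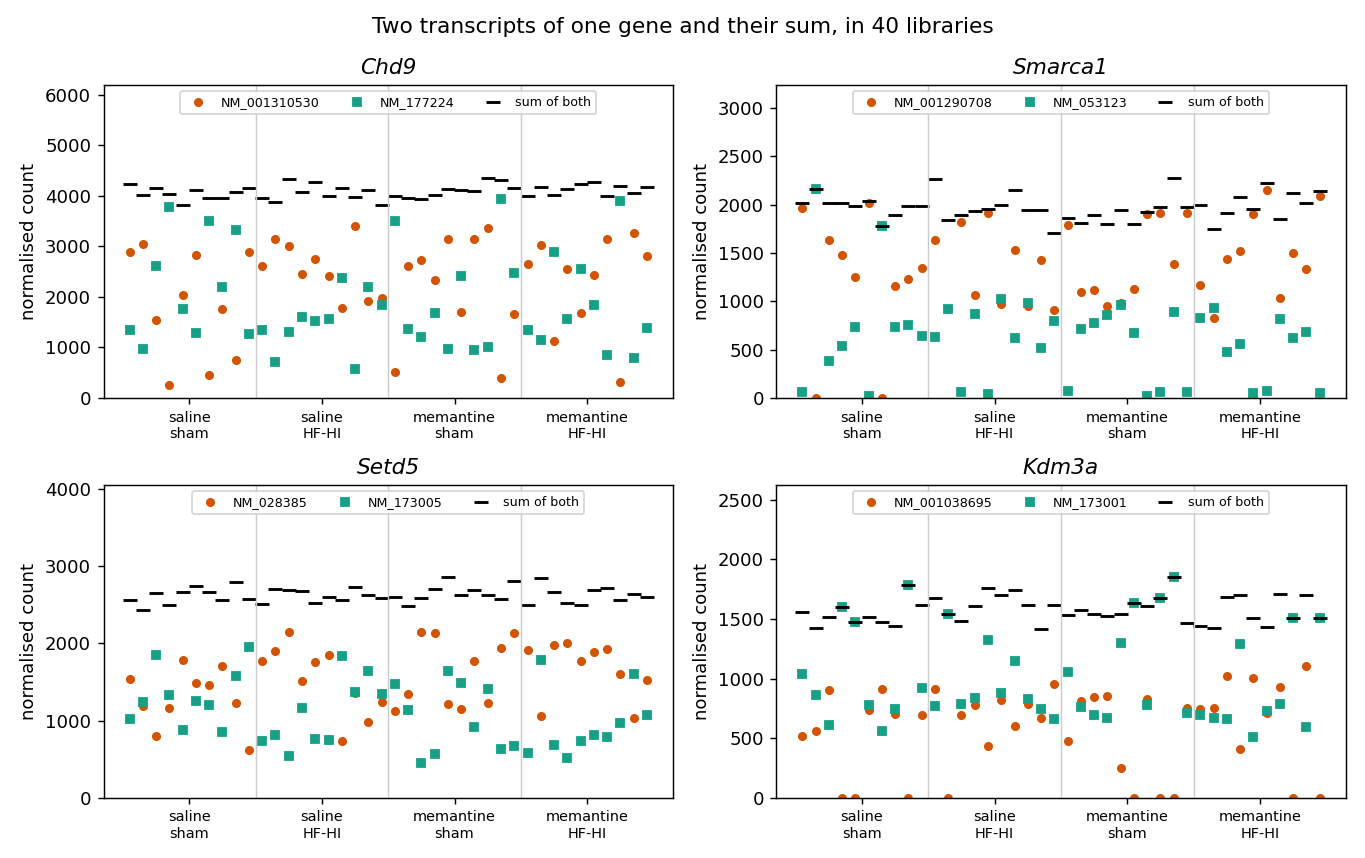
Normalised counts of both transcripts (circles and squares) of Chd9, Smarca1, Setd5 and Kdm3a and their sum (dashes) in 40 libraries, in order of group. The transcripts move in opposite directions between libraries, while the sums stay within 3807 to 4359 for Chd9 and 2438 to 2858 for Setd5.

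Within the coding sequence, a short stretch tells the transcripts of 3 of these genes apart. They differ in noncoding sequence as well, as the Chd9 transcripts NM_001310530 and NM_177224 are 9419 and 12008 bases long. The coding stretch is shown for Chd5, Chd9 and Setd5 because the counts of their transcripts differ from those of the gene. Sequences are from GENCODE M21 transcripts (GRCm38), 5′ to 3′ on the strand of the gene, with the stretch in capitals and 10 bases of the neighbouring coding sequence on each side in lower case. In Chd5 the 111 bases of exon chr4:152376580-152376690 (plus strand) are in NM_001081376 and not in NM_029216. In Chd9 the last 48 bases of exon chr8:91036326-91036598 (plus strand, 91036551 to 91036598) are in NM_001310530 and not in NM_177224. In Setd5 the first 57 bases of exon chr6:113110317-113110525 (plus strand, to 113110373) are in NM_173005 and not in NM_028385. All lengths are multiples of 3.
Chd5: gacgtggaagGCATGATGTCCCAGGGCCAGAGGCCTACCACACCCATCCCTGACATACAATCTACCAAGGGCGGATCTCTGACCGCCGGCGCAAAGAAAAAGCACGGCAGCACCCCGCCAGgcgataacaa
Chd9: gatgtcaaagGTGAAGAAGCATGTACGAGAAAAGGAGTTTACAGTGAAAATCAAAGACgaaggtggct
Setd5: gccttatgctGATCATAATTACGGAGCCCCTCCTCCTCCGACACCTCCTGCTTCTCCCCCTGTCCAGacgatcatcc

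Chd5 is a CHD remodeller of neurons. Its NM_029216 transcript, which lacks the 111 bases, had counts of 423 to 1848 (median 806) in saline sham and 348 to 1753 (median 1112) after impact with saline. With memantine they were 649 to 2528 (median 1530) in sham and 396 to 1998 (median 999) after impact. It was higher in memantine sham than in saline sham by 0.68 (SE 0.28, limma p = 0.0134, adjusted p = 0.591, permutation p = 0.0235), with 8 of 10 libraries above the saline sham mean. Its interaction of impact and drug was called at -0.79 (SE 0.39, limma p = 0.0399, adjusted p = 0.999). That call was lost in 18 of the 40 fits that left out a library (p = 0.0721 without replicate 5 of memantine HF-HI). It was also lost with the striatal marker mean as a covariate (limma p = 0.0514). The longer transcript NM_001081376 had means of 5522 ± 237 with saline and 5257 ± 583 with memantine in the sham groups. The sum of both, in which NM_029216 held between 5.45% and 36.2%, differed by 0.061 between the sham groups (limma p = 0.116), and its interaction had p = 0.419. For Chd9, the change of NM_001310530 with impact under saline was 0.81 (95% interval -0.08 to 1.70, p = 0.0777) and that of NM_177224 was -0.52 (p = 0.107), while the sum changed with p = 0.994 and an interval of -0.044 to 0.044. For Setd5 the corresponding changes were -0.32 for NM_173005 (p = 0.219) and 0.23 for NM_028385 (p = 0.223), with an interval of -0.048 to 0.056 for the sum.

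Kdm3a differed from these, since its transcripts have the same coding sequence and differ in the noncoding start. NM_001038695 was listed at 0 in 9 of 40 libraries, 3 in each sham group, 1 after impact with saline and 2 after impact with memantine, while the Kdm3a sum ran from 1417 to 1850 over all libraries. Single transcripts with such spread were Kmt5b NM_001167885 (spread 2.97, counts from 0 to 1184, 1 of 10 curated transcripts of a histone H4 lysine 20 methyltransferase) and Hdac5 NM_010412 (2.51). For Kmt5b, at 678 ± 459 in saline sham and 579 ± 366 in saline HF-HI, the design could bound the log2 change with impact only to between -2.60 and 2.67. Of 74 genes, 35 have more curated RefSeq transcripts than the table holds.

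A list of 112 symbols of related genes had 68 in the table, with 79 transcripts. It names Nsd2 and Nsd3 under an alias as well. Among others it holds Polycomb and heterochromatin proteins, other histone readers, remodeller subunits, corepressors and sirtuins. Arginine, H3 lysine 36 and DNA methyltransferases are in it too. In saline HF-HI 6 of the 79 passed (4 up and 2 down, against 9.53% of the table): Phf20 (change 0.082, limma p = 0.000774), Ing2 (0.16, p = 0.00491), the Polycomb methyltransferase Ezh1 (0.074, p = 0.0301) and the SWI/SNF subunit Phf10 (0.088, p = 0.0389) rose, and the H3 lysine 36 methyltransferase Nsd2 (-0.071, p = 0.0404) and the heterochromatin protein transcript of Cbx5 (-0.32, p = 0.0416) fell, the Cbx5 sum giving p = 0.579. Impact under memantine gave 1 of 79 (against 4.61%), impact averaged over drug arms 9 (against 9.66%), memantine in sham mice 3 (against 7.51%), memantine in impacted mice 2 (against 3.91%), averaged memantine 5 (against 8.11%) and the interaction 2 (against 3.73%). None of the 79 had an adjusted p under 0.1 by limma in any of the 7 comparisons.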

How the data were processed

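RNA of 40 cortex samples was sequenced. Per the paper's methods, ribosomal RNA was depleted, stranded paired-end libraries were aligned with STAR and transcripts counted with eXpress; the submitters' processing notes name HISAT2, StringTie and build mm10, and which route made the table was not resolved here. The authors deposited 1 table of variance-stabilised values on a log2 scale, compressed at low counts, of abundant transcripts only, so low genes were not analysed here. The values were inverted to normalised counts, and in each library 100% of those under 5000 were whole multiples of 1 step (tolerance 0.1 of a read). At the lowest mean of the chromatin transcripts, counting error corresponds to 4.22% of the count. Symbols came from RefSeq GRCm38.p6 and 1 member from GENCODE M21.

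The test was limma 3.58.1 in R 4.3.3 with an intensity trend in eBayes, fitted to the deposited log2 values of all 6831 transcripts, with 1 term per group and 7 contrasts, adjusted over all transcripts. Changes were fitted to log2 of the normalised count plus 1, and sums by gene likewise. Permutation tests were two-sided with 100000 resamples (scipy 1.17.1). Named transcripts were the called ones, up to 12 in each direction for impact under saline and 4 in each other contrast, and the smallest p and extreme levels of each class. The members and lists were chosen with earlier results of these data known. In simulated data, 91% of 200 changed transcripts among 6831 (0.2 on the deposited scale, saline HF-HI against saline sham) were recovered at p under 0.05. The changes called for impact under saline were smaller, between 0.025 (Hdac3) and 0.092 (Brd9) in size on that scale. Recovery of changes of that size was not tested. The series text speaks of 4 samples per group, whereas the sample labels give 10, and the labels were followed. Nothing states that samples came from separate litters or days, so p-values measure the spread between these samples. Alternatives were a replicate block, other scalings, filters, models and each library left out.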

Additional observations from a re-analysis of the deposited data

Results flagged for a closer look

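In 72 sets of 10 libraries (each named transcript in each group), 8 held a library whose gap to its nearest neighbour was above 0.466 of the range of the group on the deposited scale, and chance gives about 1 in 20. The gap was 0.502 of the range for Hdac3 in replicate 8 of saline HF-HI, with a count of 1324 against 1118 to 1218 in the others. It was 0.696 for Tet2 in replicate 10 of memantine sham (1996 against 1303 to 1495), 0.704 for Kat2a in replicate 9 of memantine sham (335 against 578 to 703) and 0.491 for Kat2a in replicate 5 of memantine HF-HI (654 against 442 to 544). For Chd5 NM_029216 it was 0.501 in replicate 6 of saline HF-HI (348 against 899 to 1753). Hdac5 gave 0.545 in replicate 4 of memantine sham (307 against 635 to 1009.8) and 0.565 in replicate 5 of memantine HF-HI, where it was listed at 0 against 355 to 1165 in the others. Brd8 NM_001289606 gave 0.579 in replicate 5 of memantine sham (170 against 423 to 684).

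The interaction term of Chd5 NM_029216 passed the unadjusted threshold (limma p = 0.0399, adjusted p = 0.999). Its change with impact was 0.28 under saline and -0.51 under memantine on the log2 scale. The call was lost in 18 of the 40 fits that left out a library, and the sum of the Chd5 transcripts was not called (limma p = 0.419).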

How the results depend on the processing

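The share of all transcripts called is not given for these alternatives. The counts below thus cannot tell a shift of the chromatin transcripts from a shift of the whole table. The count of 5 called transcripts for impact under saline was 1 with the striatal marker mean as a covariate. It was 3 among the 56 chromatin transcripts with a mean of at least 1000 counts. For impact under memantine, 3 became 1 with that filter. Between the HF-HI groups, 2 became 0 with only the groups of the contrast and 1 with the filter or the covariate. The interaction count of 1 became 0 with transcripts summed by gene or with the covariate. For impact averaged over drug arms, 6 became 3 with the filter and 1 with the covariate, and the adjusted count of 0 became 2 with libraries weighted. The filter tests fewer transcripts, and the other causes were not tested. Leaving out each of 40 libraries in turn gave 4 to 7 calls for impact under saline, 0 to 4 under memantine, 0 to 3 between HF-HI groups, 3 to 7 between sham groups, 0 to 2 for the interaction, 3 to 8 for averaged impact and 4 to 9 for averaged drug. At an adjusted p under 0.1 it gave 0 to 1 for averaged impact (1 without replicate 1 of saline sham or replicate 9 of memantine sham) and 0 in the other 6. The lowest counts came without replicate 2 of memantine sham (0 under memantine), replicates 4 or 6 of saline HF-HI and 3 or 7 of memantine HF-HI (0 between HF-HI groups), replicate 2 of saline sham or 10 of memantine sham (3 between sham groups), and replicates 2 or 7 of saline sham (3 for averaged impact). Impact under memantine gave 1 without replicate 3, 7 or 8 of memantine sham or 4 or 7 of memantine HF-HI. The sign of Tet1 for impact under saline reversed with the covariate (0.0020 on the deposited scale, against -0.012). No other named change reversed under any alternative. Replicate numbers showed no general pairing, as same-numbered samples of different groups correlated with a median of -0.0003 and over 0.1 in 4 of 60 pairs. Among those 4 were 0.101, 0.125 and 0.160 in replicate 1, and a median cannot exclude that some samples were paired. With the replicate as a block, the calls were 5 for impact under saline, 3 under memantine, 2 between HF-HI groups, 5 between sham groups, 1 for the interaction, 4 for averaged impact and 6 for averaged drug. Under saline the block lost Hdac3 (p = 0.0645) and gained Kdm5b, and for averaged impact it lost Hdac3 (0.0540) and Hdac5 (0.0572). Counting error was 4.22% of the count at the lowest mean among these transcripts. Kat14, with the lowest mean normalised count (558), had a spread within groups of 0.31 on the log2 scale. The part of depth in such spread was not tested.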
